A study of Mus musculus with 4 samples.

Results

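Basement membranes are thin sheets of extracellular matrix that underlie epithelia and surround vessels, muscle and nerve. They are built from a laminin network and a type IV collagen network, linked by nidogens and heparan sulfate proteoglycans and held to cells by integrins and dystroglycan. In the developing lung they separate the branching epithelium from the mesenchyme, and later they form the shared layer between alveolar epithelium and capillaries. Open chromatin was described here at 31 such genes, of 21887 protein-coding genes with an annotated position. The members were given as a list of gene names, and the rule that chose them used no measured value: 6 type IV collagens, 10 laminin chains, 6 nidogens and proteoglycans, 4 genes of the Fras and Frem group with its partner Npnt, and 5 receptors.

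The study profiled chromatin by ATAC-seq, in which Tn5 transposase cuts and tags accessible DNA, within a series on HOXA5, a transcription factor of lung mesenchyme. Its 4 libraries formed 1 group of whole lung from wild-type mouse embryos at E15.5, with replicate numbers 1 to 4 and no treated or mutant group in these data. Per the labels, the lungs had been snap-frozen and 60000 nuclei were tagmented for each library, and nothing in the labels told whether replicates were separate embryos or litters. Every value after ± is an SD over the 4 libraries, whose spread may be technical. With 1 group there is no contrast, and an exact two-sided sign-flip permutation test over 4 libraries cannot go below p = 0.13. Counts and medians are accordingly given without a test, beside the same over all genes. Whole lung was sampled, so fewer cells of a type and less accessibility per cell cannot be told apart.

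The 4 peak lists held 134503 to 211678 peaks, with the fewest in replicate 1. Its median fold enrichment was 8.99, against 3.73 to 3.90 in replicates 2 to 4, and its peaks covered 78.6 Mb, against 140.7 to 162.1 Mb. In the deposited lists the peak names of replicate 1 began with Frais (French for fresh), and those of replicates 2 to 4 with Frozen, although the labels describe all lungs as snap-frozen. Replicate 1 thus stood apart, and values without it are given for the results named as resting on it. Defining genes of the lung had a gene-end peak in every library for 6 of 6 epithelial, 5 of 5 mesenchymal, 3 of 4 endothelial and 3 of 3 mesothelial markers. The same held for 2 of 3 blood, 2 of 3 skeletal muscle and 0 of 3 liver markers. Of all protein-coding genes 66.7% had such a peak, so 2 of 3 does not stand out from genes at large. The lists are short, and their counts do not measure the share of any cell type. Ptprc of blood and Alb and Ttr of liver had no gene-end peak in the 4 libraries, and the lowest mean percentiles among the open markers were those of endothelial Pecam1 (30.1) and of the muscle genes Myod1 (47.5) and Myog (51.1). The part of these other cell types in the results was not tested.

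The promoters of the type IV collagens are shown first, because these genes lie in head-to-head pairs and the openness of a pair's shared stretch is a main result. Each line gives the 250 bases before and 50 after the annotated start, from RefSeq in build GRCm38.p6 (mm10), 5′ to 3′ on the gene's own strand. Capitals mark every match on either strand to GGGCGG (the GC box bound by Sp factors), CCAAT or CCCTNCCCC, where N is any base. Col4a3 had no listed start.
Col4a1, chr8:11312777-11313076, minus strand: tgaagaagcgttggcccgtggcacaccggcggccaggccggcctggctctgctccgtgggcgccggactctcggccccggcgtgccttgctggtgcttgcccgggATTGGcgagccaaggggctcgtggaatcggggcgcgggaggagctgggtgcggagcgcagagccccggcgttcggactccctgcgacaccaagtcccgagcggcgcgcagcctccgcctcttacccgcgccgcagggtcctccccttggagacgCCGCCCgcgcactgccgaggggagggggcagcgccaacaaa
Col4a2, chr8:11312555-11312854, plus strand: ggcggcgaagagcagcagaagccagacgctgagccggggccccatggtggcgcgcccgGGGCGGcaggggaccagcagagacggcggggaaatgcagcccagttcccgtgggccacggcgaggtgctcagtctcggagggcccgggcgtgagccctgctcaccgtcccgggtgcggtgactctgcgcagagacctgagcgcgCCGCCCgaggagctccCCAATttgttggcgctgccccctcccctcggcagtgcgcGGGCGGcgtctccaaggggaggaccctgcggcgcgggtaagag
Col4a4, chr1:82586800-82587099, minus strand: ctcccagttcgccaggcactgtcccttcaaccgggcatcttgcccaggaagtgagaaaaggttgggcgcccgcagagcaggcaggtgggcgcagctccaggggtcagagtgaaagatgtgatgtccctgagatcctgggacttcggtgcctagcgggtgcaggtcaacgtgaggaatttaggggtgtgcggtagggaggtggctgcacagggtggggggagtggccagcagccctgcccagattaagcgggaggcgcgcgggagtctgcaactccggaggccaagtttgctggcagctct
Col4a5, chrX:141475169-141475468, plus strand: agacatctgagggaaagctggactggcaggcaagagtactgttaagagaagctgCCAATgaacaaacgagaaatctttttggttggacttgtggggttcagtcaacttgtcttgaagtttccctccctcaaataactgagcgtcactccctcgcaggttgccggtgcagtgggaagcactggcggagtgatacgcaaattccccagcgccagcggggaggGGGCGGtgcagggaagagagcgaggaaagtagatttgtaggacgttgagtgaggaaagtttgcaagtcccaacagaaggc
Col4a6, chrX:141474027-141474326, minus strand: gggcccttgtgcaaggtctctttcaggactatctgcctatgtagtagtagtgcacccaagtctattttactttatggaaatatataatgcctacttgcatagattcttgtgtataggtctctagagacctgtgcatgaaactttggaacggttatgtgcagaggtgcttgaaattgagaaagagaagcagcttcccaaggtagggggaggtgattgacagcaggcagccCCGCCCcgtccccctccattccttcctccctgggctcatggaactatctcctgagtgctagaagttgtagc
The Col4a1 and Col4a2 windows overlap, so that the GC box of Col4a1 is the last one of Col4a2 read on the opposite strand. These windows held 1 GC box in Col4a1 and 3 in Col4a2, and each held 1 CCAAT. Col4a4 held none of the marked motifs. Col4a5 had 1 GC box and 1 CCAAT, and Col4a6 had 1 GC box.

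All 31 members had a peak of every library within 1 kb of an annotated gene end, as did 66.7% of all protein-coding genes (14602 of 21887). In the single libraries 1 to 4 all 31 members had such a peak, against 69.2%, 73.2%, 73.9% and 73.8% of all genes. Members were long genes, from 10.7 to 636 kb, and among the 13435 genes in that range of length the share was 76.7%. Only the range is shared, as the median length was 113.9 kb for members and 34.0 kb for those genes. Length within the range was thus not matched, here or in later comparisons with these genes. The members were read against these shares only as a description, since no test was made. When the summit itself had to lie in the window, 28 of 31 members were still open in every library, against 60.5% of all genes. A gene's value below is the percentile of its strongest gene-end peak, ranked by fold enrichment within its own library's list, where 100 is the strongest peak. The lists differ in length, from 134503 peaks in replicate 1 to 211678 in replicate 3. The same rank from the top therefore gives a lower percentile in replicate 1, and the SDs of percentiles include this. The median member had a mean percentile of 93.1 over the 4 libraries, and the median of all genes open in every library was 94.5. Thus gene ends of members were open more often than those of genes at large, but their peaks did not rank higher. A mean percentile of 90 or more was reached by 20 of 31 members and by 69.3% of all open genes. The strongest peak was at least 1 kb wide in every library for 24 of 31 members, against 60% of all open genes. Replicate 1 gave the lowest percentile of the 4 libraries for 28 of 31 members, and for 89.1% of all open genes. Its shorter list lowers percentiles by construction, and how much of this order that makes up was not tested.

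**Figure D1:**
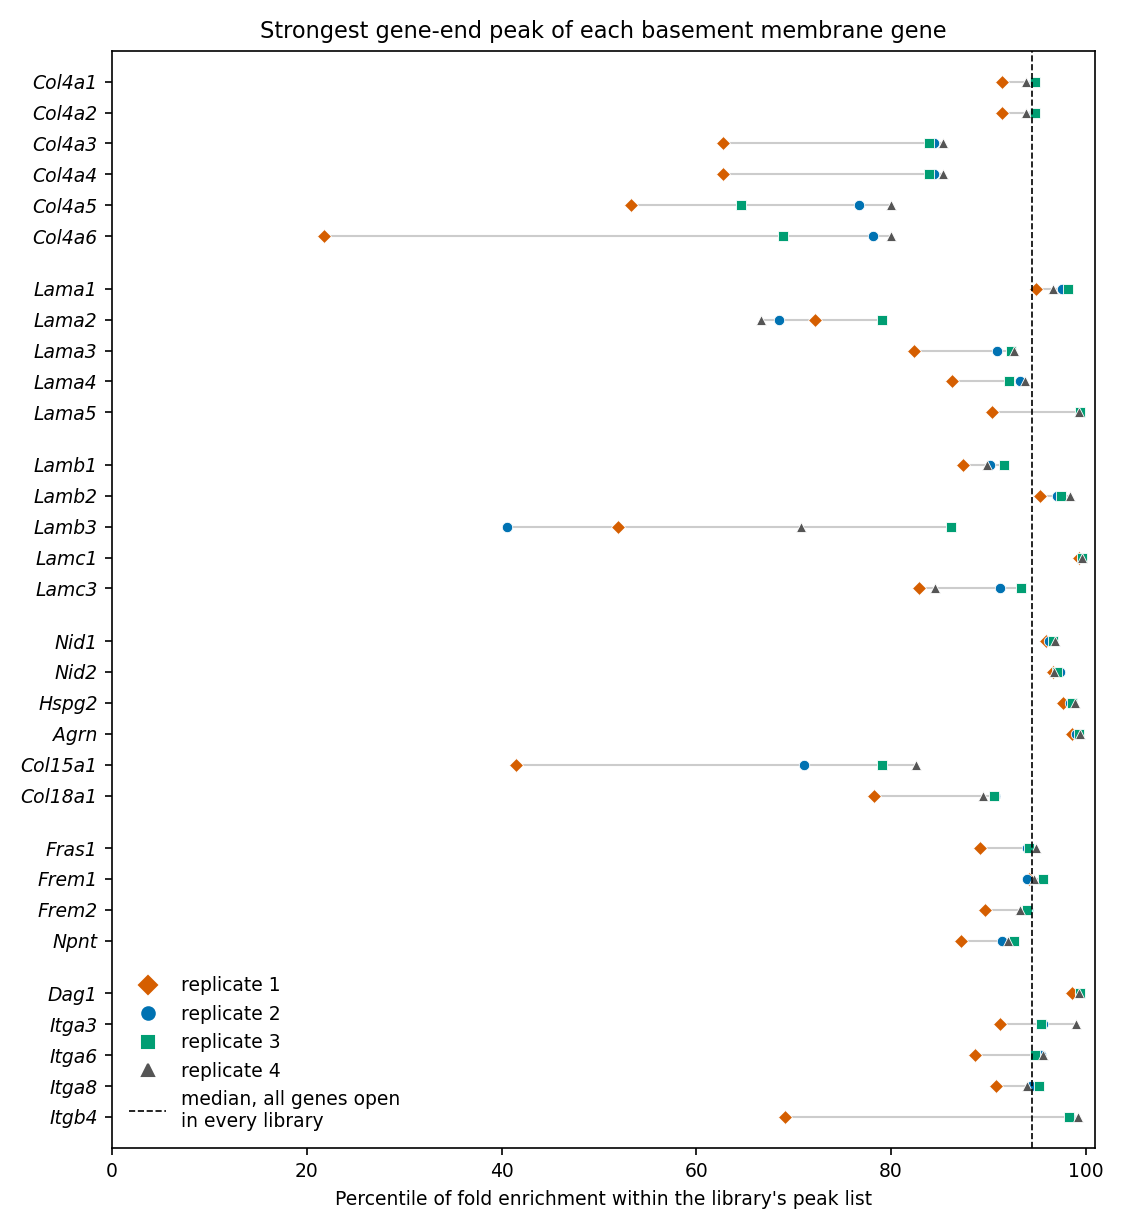
Percentile of the strongest gene-end peak of each basement membrane gene (x axis, percentile of fold enrichment within the library's own peak list), grouped by family down the page, with 1 symbol per library. Lamc1, Dag1, Agrn and Hspg2 are among those to the right of the dashed median of all open genes (94.5) in all 4 libraries. Col4a5, Col4a6, Lamb3, Col15a1 and Lama2 are among those to its left in all 4.

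Of the type IV collagens, Col4a1 and Col4a2 encode the chains of the trimer found in almost every basement membrane. Col4a1 (chr8:11198423-11312889) and Col4a2 (chr8:11312805-11449287) face each other with starts at overlapping ends 84 bp apart, and a single peak covered both ends in every library. That peak had a fold enrichment of 57.2, 21.5, 17.3 and 16.5 in replicates 1 to 4, at percentiles of 91.4, 94.7, 94.7 and 93.9 (93.7 ± 1.59, SD, n = 4). Its width was 2469 to 4125 bp. The higher fold in replicate 1 went with a higher fold of its whole list. Its percentile was the lowest of the 4, but its list is also the shortest, which lowers a percentile at equal rank. Because 1 peak serves both genes, the data cannot assign it to either.

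Col4a3 and Col4a4 encode chains that, with the product of Col4a5, form the specialised network of kidney glomeruli and lung alveoli. Their facing ends on chromosome 1 lie 113 bp apart and also shared 1 peak in every library, which covered both. Its fold was 12.5, 8.28, 6.96 and 7.78, and its percentile 62.8, 84.4, 83.9 and 85.3 (79.1 ± 10.9). It was 1039 to 1372 bp wide. In each of the 4 libraries this peak was therefore weaker and narrower than that between Col4a1 and Col4a2.

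Col4a5 and Col4a6, on the X chromosome, have facing ends 1275 bp apart. Col4a5 had percentiles of 53.3, 76.7, 64.6 and 80.0 (68.7 ± 12.2). Col4a6, whose product joins that of Col4a5 in other epithelial and smooth muscle basement membranes, had 21.8, 78.1, 68.9 and 80.0 (62.2 ± 27.4), the lowest mean of the 31 members. Without replicate 1 it averaged 75.7, above Lamb3 (65.8), Lama2 (71.4) and Col4a5 (73.8). Each gene had a peak of its own in replicates 1 to 3. In replicate 4 the strongest peak at both genes was 1 peak of 1173 bp, which lay at Col4a5 and only reached into the window of Col4a6. At the listed start of Col4a6 the percentile in replicate 4 was 54.7, so the tie at 80.0 came from the neighbour's peak. The means of 62.2 and 75.7 both include that 80.0, and at the listed start the mean was 55.9 ± 24.7. The place of Col4a6 without replicate 1 thus depends on which peak is counted in replicate 4. Of all genes on X, 46.7% had a gene-end peak in every library.

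Thus 2 of 3 pairs had 1 peak touching both genes in every library, as did 64.3% of the 3941 gene pairs in the annotation whose ends lie as close. A peak covering both ends in every library was found for 2 of 3 pairs and for 43.3% of those 3941. With windows of 2.5 kb the third pair counted as well, but such windows overlap across its gap of 1275 bp, which favours this by construction.

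**Figure D2:**
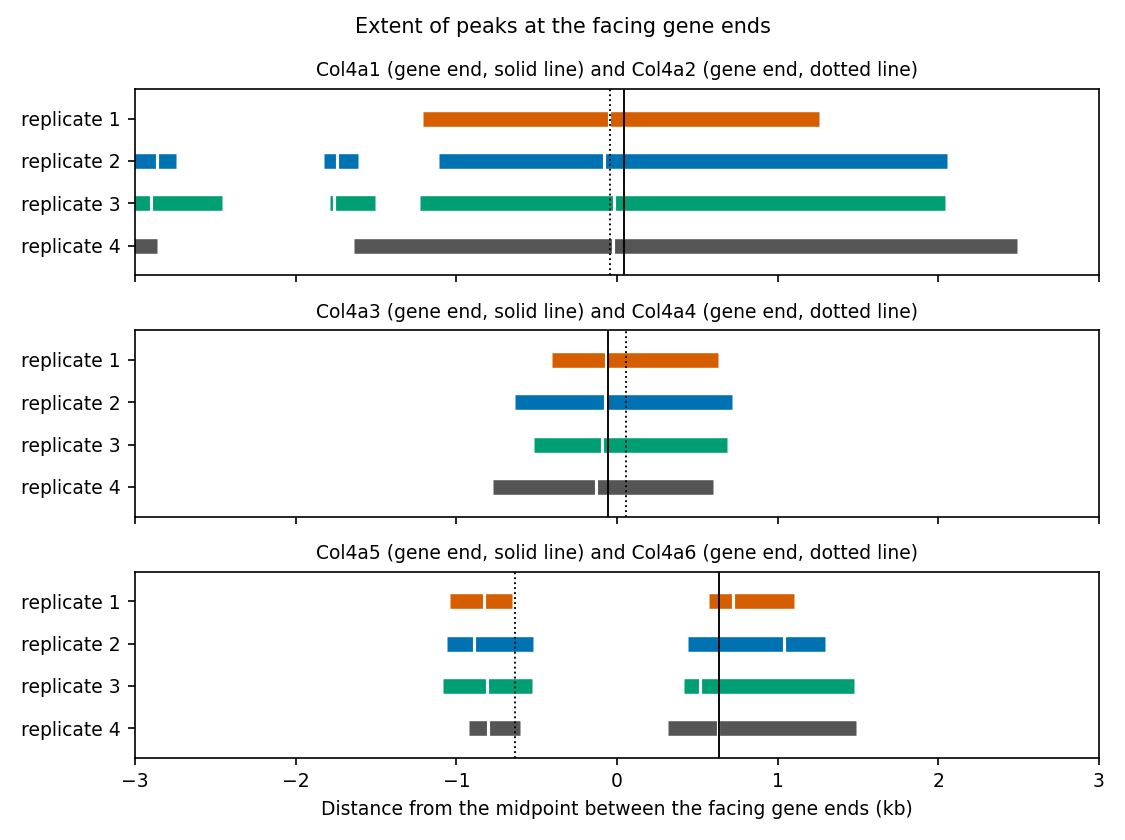
Extent of the peaks of each library (bars, with a white mark at the summit) around the facing ends of the 3 type IV collagen pairs, in kb from the midpoint between the ends (x axis). A single bar spans both gene ends in every library for Col4a1 with Col4a2 (84 bp apart) and Col4a3 with Col4a4 (113 bp apart), and none does for Col4a5 with Col4a6 (1275 bp apart).

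Laminin alpha chains carry the cell-binding globular domains. Lama5, the main alpha chain of lung epithelium in later development, had the highest mean of the family, with 90.4, 99.4, 99.4 and 99.3 (97.1 ± 4.51). In replicates 2 to 4 that strongest peak touched the downstream end with its summit outside the window. At the listed start of Lama5 the percentiles were 90.4, 96.9, 96.7 and 98.4 (95.6 ± 3.57). In replicates 2 to 4 these belonged to broad peaks of 18015 to 18302 bp. Their summits lay 3424 and 3352 bp inside the gene in replicates 2 and 4, so these 2 values do not describe the start itself. Lama1, the chain of the earliest embryonic basement membranes, averaged 96.8 ± 1.46. Lama4, the chain of vessel walls, averaged 91.4 ± 3.43, and Lama3, the chain of the laminin that anchors hemidesmosomes, averaged 89.5 ± 4.83. Lama2, the chain of muscle and peripheral nerve basement membranes, was the lowest, with 72.2, 68.5, 79.0 and 66.7 (71.6 ± 5.46). Lama2 (chr10:26981285-27617191) was below the other 4 alpha chains in every library, and unlike most members it was not lowest in replicate 1.

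Among the beta and gamma chains, Lamc1 encodes the gamma chain of most laminins and had the highest percentile of all 31 members in each library. Its peak had a fold of 230.6, 82.8, 71.9 and 79.3, at percentiles of 99.3, 99.6, 99.6 and 99.6 (99.6 ± 0.16), at the higher-coordinate end of the gene (chr1:153218922-153332786). Lamb2, a beta chain of neuromuscular junctions and glomeruli, averaged 97.0 ± 1.31, with the strongest peak of replicate 2 at its downstream end. The summit of the peak at its listed start lay upstream of that start, at -921 to -932 bp, in all 4 libraries. Lamb1, the beta chain of most embryonic laminins, averaged 89.8 ± 1.77. Lamc3, a gamma chain of restricted distribution, averaged 88.0 ± 5.06, but no summit of these peaks lay inside its windows.

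Lamb3, the partner of Lama3 in hemidesmosomes, was lowest of this family at its annotated ends, with 52.0, 40.6, 86.2 and 70.8 (62.4 ± 20.2). No summit lay inside those windows either, and the peak touched the upstream end in replicates 1 and 2 and the downstream end in replicates 3 and 4. The first listed start of Lamb3 lies 7.64 kb inside the annotated gene, and there the peak had percentiles of 76.7, 95.2, 94.4 and 94.2 (90.1 ± 8.96). The low value of Lamb3 thus belonged to the annotated gene ends and not to its listed starts. It was the only member that lost its call at 0.5 kb windows.

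Nidogens and heparan sulfate proteoglycans bridge the laminin and collagen networks. Agrn, which encodes agrin and is best known for clustering acetylcholine receptors at neuromuscular junctions, had 98.6, 99.1, 99.4 and 99.4 (99.1 ± 0.37). Hspg2, which encodes perlecan, averaged 98.4 ± 0.52. Nid2 averaged 96.9 ± 0.33 and Nid1 96.4 ± 0.38, with Nid2 higher in 3 of 4 libraries. The SD of each of these 4 genes was 0.52 or less, against a median SD of 2.63 over the 31 members. Col18a1, the precursor of endostatin, averaged 87.2 ± 6.04. Col15a1, its relative in muscle and vessel basement membranes, was lowest with 41.5, 71.1, 79.0 and 82.6 (68.5 ± 18.7). In replicates 2 and 3 its strongest peak lay at the downstream end, and in replicates 1 and 4 at the upstream end. At its listed start the percentiles were 41.5, 61.2, 75.0 and 82.6 (65.1 ± 18.1).

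Fras1, Frem1 and Frem2 encode proteins that assemble with each other beneath embryonic epithelia, and their loss causes skin blistering and fused digits in mice. Their percentiles and that of Npnt lay close together. Frem1 was the highest, with 94.2, 94.0, 95.6 and 94.7 (94.6 ± 0.74). Fras1 averaged 93.1 ± 2.63 and Frem2 92.8 ± 2.13. Npnt encodes nephronectin, the ligand of the integrin that contains the Itga8 chain. It was the lowest, with 87.2, 91.4, 92.7 and 92.0 (90.8 ± 2.49). The annotated end of Frem2 and its listed start differ by 1238 bp, and the summits lay at -76 to -119 bp from the listed start.

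Of the receptors, Dag1 encodes dystroglycan, which binds laminins and perlecan. It was the highest, with 98.6, 99.4, 99.4 and 99.4 (99.2 ± 0.39), and its order relative to Agrn was not the same in every library. Itga3, a laminin receptor chain required for normal lung branching in mice, averaged 95.3 ± 3.16. In replicate 4 its strongest peak touched the downstream end with its summit outside the window, and at its first listed start Itga3 averaged 94.6 ± 2.27. Itga6, the laminin receptor chain of hemidesmosomes, averaged 93.6 ± 3.37, and Itga8 also averaged 93.6, with an SD of 1.96. Itgb4, the hemidesmosome partner of Itga6, was the lowest by its mean, with 69.1, 98.4, 98.3 and 99.2 (91.2 ± 14.8). Without replicate 1 it averaged 98.6, second to Dag1 (99.4), and Itga8 was the lowest receptor, at 94.5. In replicates 2 to 4 its strongest peak was 7067 to 15861 bp wide, touched the end with the higher coordinate and had its summit outside the window. In replicate 1 it was a peak of 1042 bp at the other end. The value of Itgb4 was therefore set by different peaks in different libraries.

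A set of 62 further genes of the basement membrane and its assembly was examined, of which 61 matched the annotation and Lamb4 did not. A gene-end peak in every library was found for 56 of 61, against the 66.7% of all genes given above. Among the highest were P4ha1 (99.3) and Sdc2 (99.1), which encode a collagen prolyl hydroxylase subunit and a syndecan. The lowest of the 56 were Smoc1 (57.7), Col7a1 (60.6) and Ntn4 (62.0), each varying by an SD of 24.4 to 33.5 over libraries. Of the others, Frem3 had a gene-end peak in 1 library, Col17a1 in 2, and Pxdn and Plod2 in 3. Pxdn, the peroxidase that crosslinks type IV collagen, had 94.4, 94.7 and 95.8 in replicates 2 to 4 and no peak in replicate 1.

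RefSeq listed 28 starts for 21 of the members, 7 of which had more than 1. A peak of every library touched the window of 300 bases, 250 before and 50 after the start, at 26 of 28 starts. The same held for 62.1% of 21263 starts of all protein-coding genes. By gene, at least 1 start was open in this way for 21 of 21 members and for 63.4% of 17492 genes. Starts were divided by the ratio of observed to expected CpG in the 300 bases around them, where values near 1 mark CpG islands and low values mark DNA that has lost CpG. A ratio of 0.6 or more was found at 13 of 28 member starts and at 47.7% of all starts, so such starts were no more frequent among members. At this ratio, 13 of 13 member starts were open, and so were 94.9% of all such starts. Below it, 13 of 15 member starts were open, and 32.2% of all such starts. The 2 exceptions were the downstream starts of Frem1 and Itga3. The open starts of low CpG ratio included Lama2 (0.0527), both starts of Lamb3 (0.0761 and 0.197), Col4a6 (0.172), Lamb2 (0.276), Frem1 (0.345), Col15a1 (0.390), Frem2 (0.477) and Col4a4 (0.489). Over all open starts of low CpG ratio, mean percentiles ran from 53.2 at the downstream start of Agrn (0.493) to 97.0 at Lamb2. The Lamb2 summits lay at -921 to -932 bp, outside the 300 bases, so the 97.0 does not describe that start itself. The highest of the others was 94.6, at the first start of Frem1. Starts of 1 gene share a neighbourhood and are not replicates.

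**Figure D3:**
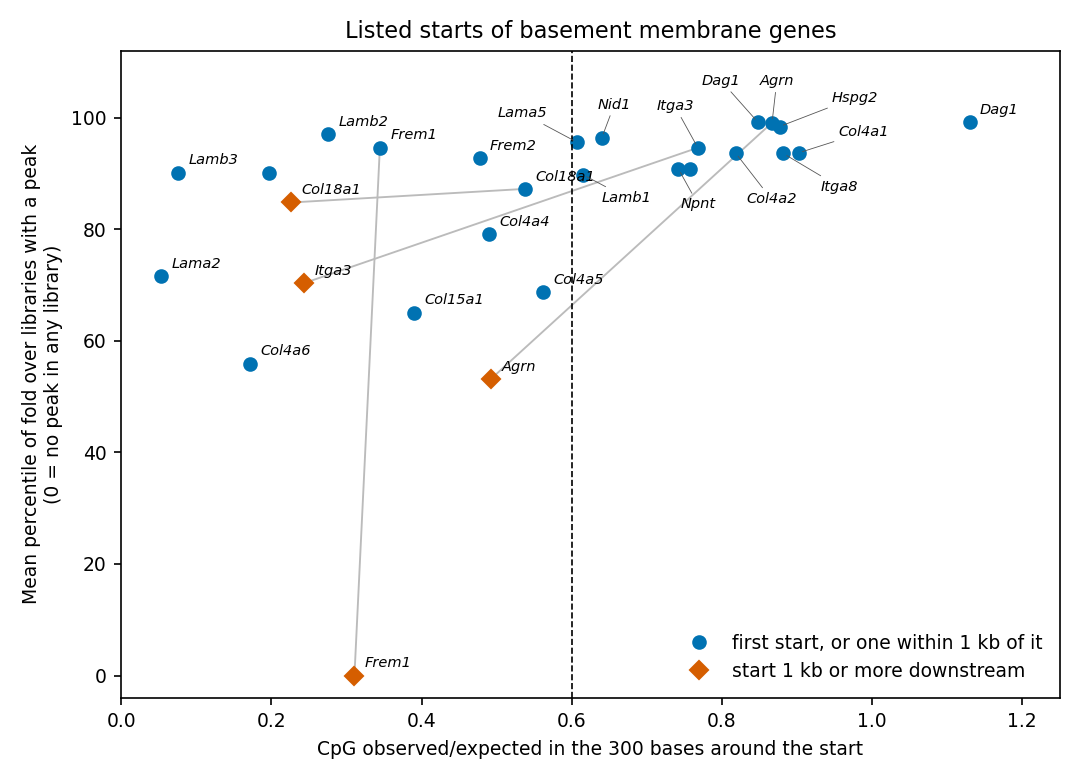
Ratio of observed to expected CpG around each listed start (x axis) against the mean percentile of the peak at that start (y axis, 0 where no library had a peak). Grey lines join the first start of a gene (circle) to one at least 1 kb downstream (diamond), the dashed line marks a ratio of 0.6, and starts to its right all lie at 89.8 or higher.

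GC boxes (GGGCGG) were present at 17 of 28 member starts, and at 46.2% of all starts. CCAAT was present at 11 of 28 and 38.2%, and CCCTNCCCC at 5 of 28 and 10.3%. TATAAA, the TATA box, was found at none of the 28, against 12.6% of all starts. TGANTCA (the AP-1 site) was found at 1 of 28 and 6.99%, GGAATG (a TEAD site) at 5 of 28 and 13.6%, and TGACAG (a core of Meis and related homeodomain factors) at 7 of 28 and 18.7%. TAATTA, a homeodomain core, and TGTTTAC, a forkhead core, were found at none of the 28, against 4.53% and 3.01%. Both strands were searched, and matches of 1 motif may overlap one another. A match describes letters in the window and not a bound site.

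Starts at least 1 kb downstream of a gene's first start were open in every library for 2 of 4 members' starts and for 49.1% of 2081 such starts. Agrn is also shown, a choice made after its values were seen, with its upstream and downstream starts 11229 bp apart on chromosome 4. Alternative starts of agrin are known to give a secreted and a membrane-bound form. Capitals are as above.
Agrn upstream start, chr4:156197439-156197738, minus strand: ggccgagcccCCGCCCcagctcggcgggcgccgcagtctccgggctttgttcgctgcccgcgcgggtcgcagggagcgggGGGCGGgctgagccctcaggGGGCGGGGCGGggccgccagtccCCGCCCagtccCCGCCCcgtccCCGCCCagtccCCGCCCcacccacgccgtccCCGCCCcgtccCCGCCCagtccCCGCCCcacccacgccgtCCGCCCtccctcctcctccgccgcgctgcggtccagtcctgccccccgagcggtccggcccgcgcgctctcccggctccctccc
Agrn downstream start, chr4:156186210-156186509, minus strand: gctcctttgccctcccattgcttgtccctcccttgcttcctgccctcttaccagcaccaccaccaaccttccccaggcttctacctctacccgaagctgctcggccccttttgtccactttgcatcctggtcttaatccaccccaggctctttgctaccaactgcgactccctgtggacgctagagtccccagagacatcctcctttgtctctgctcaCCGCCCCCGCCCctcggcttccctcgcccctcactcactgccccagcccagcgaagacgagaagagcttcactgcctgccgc
The upstream window held 12 GC boxes, including overlapping ones, at a GC content of 83.3%. The downstream window held 2, at 61.3%. The downstream start had percentiles of 18.1, 49.3, 68.9 and 76.4 (53.2 ± 26.0), each below the 98.6 to 99.4 of the upstream start in the same library. Col18a1 differed, as its downstream start, 52825 bp inside the gene, had 70.2, 82.3, 98.1 and 88.7 (84.8 ± 11.7), against 87.2 ± 6.04 at its first start. The 98.1, in replicate 3, belonged to a broad peak whose summit lay at -3032 bp from that start. Frem1 had no peak in any library at its downstream start, 31064 bp from the first, which stood at 94.6 ± 0.74. The downstream start of Itga3, 7516 bp from the first, was touched by a peak in 3 libraries and by none in replicate 2. In replicate 4 that was the peak of 9041 bp at the first start, with its summit at -7575 bp from the downstream start. In replicate 3 the summit lay at -2256 bp.

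Distal regions were stretches open in all 4 libraries that lay beyond 2 kb of every protein-coding gene's ends and within 100 kb of a member. The median member had 4.06 of them per 100 kb of DNA searched, against 1.95 for all genes and 2.28 for genes in the members' range of length. The latter genes were shorter than members by median, as given above. Of the 31 members, 26 lay above the median of all genes and 19 in the upper 25% of genes. None of the 31 lacked a distal region, whereas 15.1% of all genes did. Without replicate 1 the medians were 6.11 for members and 3.11 for all genes, so the numbers moved with that library while the members' median stayed above that of all genes. Counted once each, there were 392 distal regions, of which 164 lay inside a member gene and 237 had a member's end as the nearest gene end. A mean percentile of 90 or more was found for 16.3% of these 392, and for 12.7% of all 48746 distal open regions.

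**Figure D4:**
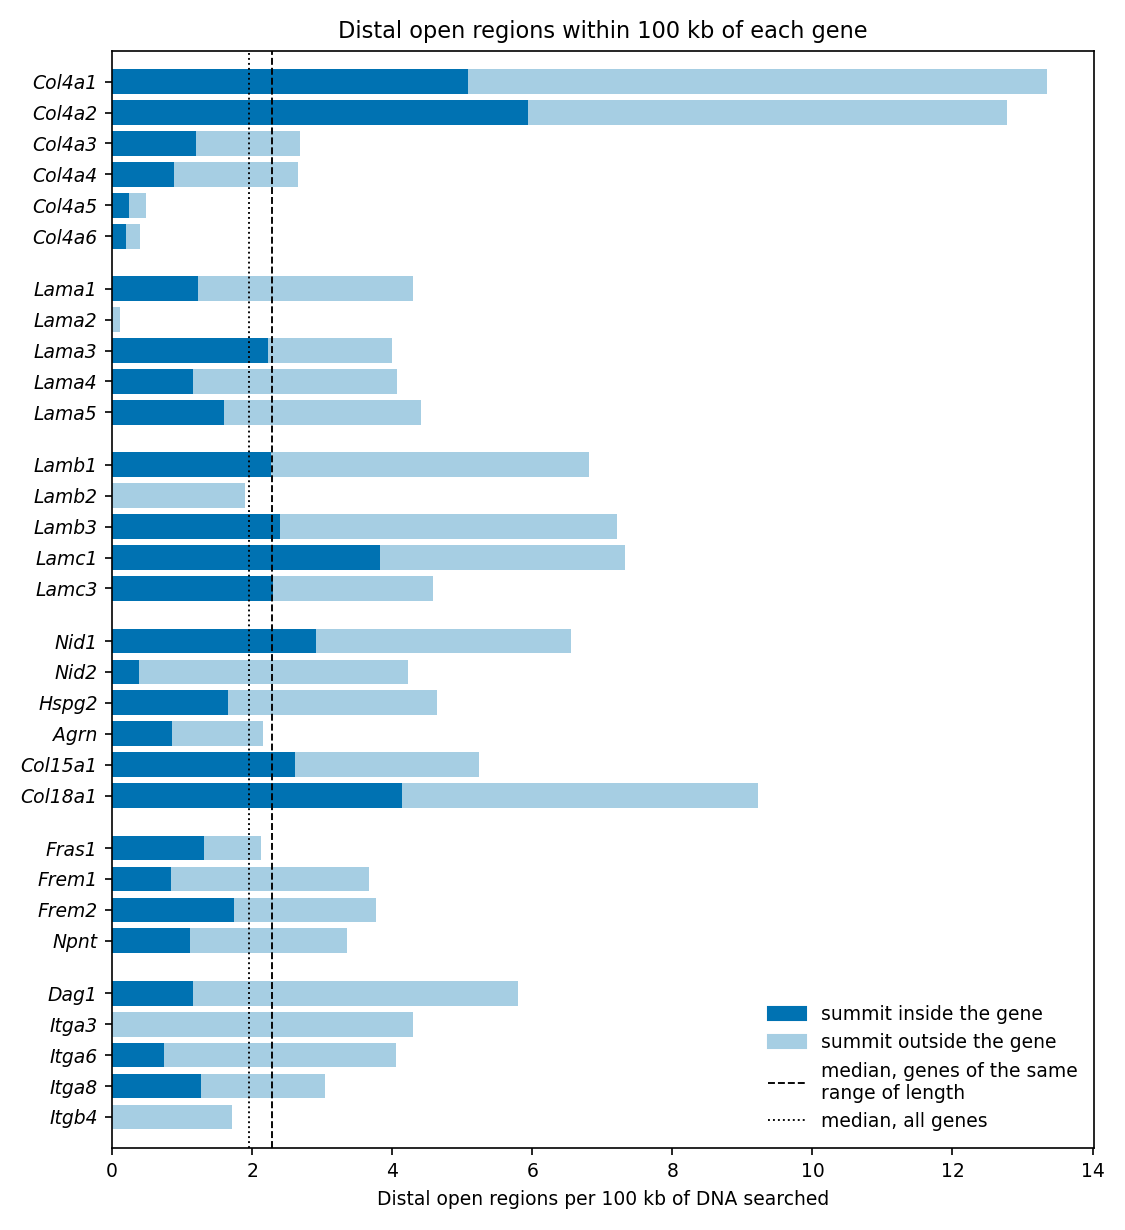
Distal open regions per 100 kb of DNA searched around each basement membrane gene (x axis), divided into regions with the summit inside the gene (dark) and outside it (light). Col4a1 and Col4a2 (13.4 and 12.8) and Col18a1 (9.23) have the longest bars, and Lama2 (0.12) the shortest, against a median of 1.95 for all genes (dotted line).

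Col4a1 and Col4a2 had the most. Col4a1 had 42 regions (13.4 per 100 kb), 16 of them inside the gene, and Col4a2 had 43 (12.8 per 100 kb), 20 of them inside. The pair shared 34 regions, since both genes lie within reach of each, and the counts are not independent. The strongest, at chr8:11403159-11407146 inside Col4a2, stood at 95.6, 94.1, 96.7 and 95.6 (95.5 ± 1.07), above the 93.7 of the shared promoter peak. The next, at chr8:11277181-11281109 inside Col4a1, stood at 97.0, 93.6, 93.9 and 93.3 (94.5 ± 1.74). The first exceeded the promoter peak in 3 of 4 libraries.

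The other pairs contrasted with this. Col4a3 and Col4a4 had 9 regions each, 5 of them shared, and the strongest, 8.94 kb from the end of Col4a3 and inside Col4a4 at chr1:82577085-82578918, stood at 87.0, 95.3, 94.9 and 92.2 (92.4 ± 3.85). In all 4 libraries this region ranked above the pair's own promoter peak. Col4a5 and Col4a6 had the same 2 regions, or 0.48 and 0.39 per 100 kb, against a median of 0.478 for genes on X. The stronger of these, at chrX:141567203-141568677 inside Col4a5, stood at 41.5, 82.3, 89.3 and 88.7 (75.4 ± 22.9).

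**Figure D5:**
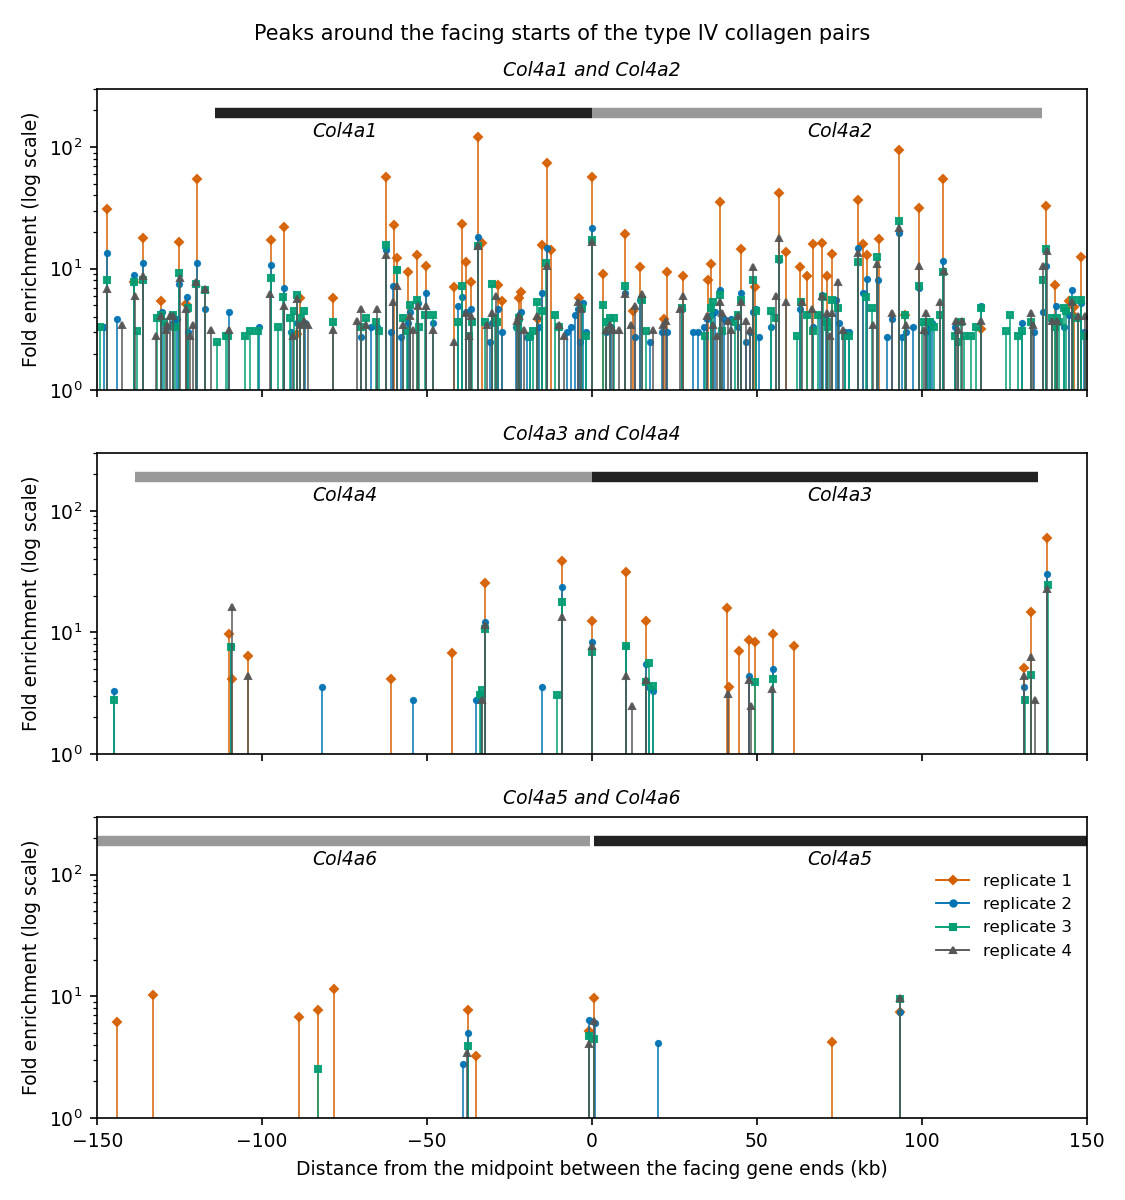
Fold enrichment (y axis, log scale) of every peak of the 4 libraries within 150 kb of the midpoint between the facing ends of the 3 type IV collagen pairs (x axis, kb), with the gene spans as bars. Peaks crowd the whole Col4a1 and Col4a2 span (42 and 43 distal regions open in every library) and are sparse around Col4a5 and Col4a6 (2 regions).

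Col18a1 had 29 distal regions (9.23 per 100 kb), and the strongest, chr10:77110037-77119537, stood at 97.4, 97.0, 98.1 and 97.5 (97.5 ± 0.45). That stretch of 9501 bp holds the downstream start described above, and it outranked the peak at the first start in all 4 libraries. Lamc1 had 23 regions (7.33 per 100 kb), or 38 (12.1 per 100 kb) without replicate 1. Without that library Nid1 had 39 regions (14.2 per 100 kb), more per 100 kb than Lamc1 or Col18a1 (13.4), so the order after Col4a1 and Col4a2 rested on it. Lamb3, with the low gene-end value, had a region inside the gene at chr1:193314918-193316731 at 98.1, 96.3, 97.8 and 97.3 (97.4 ± 0.80), above its listed starts in every library. For Itga8, 8 of 12 regions had a mean of 90 or more, the most of any member, led by chr2:12324961-12326368 with 98.2, 95.7, 97.7 and 95.5 (96.8 ± 1.38). These last 2 genes were singled out after their values were seen.

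The fewest regions were found at Lama2, which had 1 (0.12 per 100 kb) although the gene is 635.9 kb long. That region, chr10:26890070-26890852, lay inside the neighbouring Arhgap18 and stood at 28.5, 65.2, 75.0 and 81.4 (62.5 ± 23.7). The count was 2 without replicate 1 or without replicate 3, and 5 without replicate 4. No distal region shared by the 4 libraries lay inside Lama2. Peaks of single libraries did, with 22 in replicate 1 and 9, 6 and 4 in replicates 2 to 4. An excess of replicate 1 over each other library was also seen inside Col4a6 (10, 3, 3 and 3), Col4a3 (12, 8, 9 and 11) and Itga8 (17, 14, 12 and 9). This made 4 of 31 members, against 7.44% of genes in their range of length. The opposite order, fewest in replicate 1, was found for 17 of 31 members and 45.8% of those genes. Itgb4 had 4 regions (1.71 per 100 kb), or 22 (9.41 per 100 kb) without replicate 1, and its low density thus rested on that library. Its strongest region, chr11:115954779-115957132, lay inside Sap30bp and stood at 71.2, 87.4, 86.8 and 70.8 (79.0 ± 9.31).

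Peaks covered the largest share of the gene body, by the mean over libraries, in Lamb2, Lama5, Col18a1, Hspg2 and Itgb4. They covered 7.34%, 64.6%, 89.6% and 78.6% of Lamb2 in replicates 1 to 4, and 21.1%, 57.1%, 71.7% and 69.1% of Lama5. The shares were 14.6%, 38.5%, 52.4% and 44.1% in Col18a1, 16.6%, 37.7%, 43.5% and 48.6% in Hspg2, and 10.1%, 33.4%, 46.9% and 48.3% in Itgb4. The median member was covered over 6.62%, 12.7%, 15.4% and 13.8% of its length, against 3.74%, 6.64%, 7.47% and 7.48% for genes in the same range of length. In each of these 5 genes replicate 1 was the lowest of the 4 libraries, as it was for the median. At the other extreme, peaks covered 1.5% of Lama2 in replicate 1 and 0.578%, 0.465% and 0.248% in replicates 2 to 4.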

How the data were processed

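The data were 4 deposited lists of narrow peaks, 1 per library, in build mm10. The submitters' processing notes named Bowtie2 2.5.2 and SAMtools 1.18, MACS3 3.0.1, bedtools 2.31.0, deepTools, Trim Galore and FastQC 0.12.1. What each tool did, and with which settings, is not given in the sources used here. The fold enrichment deposited by the authors for each peak is a ratio over background, and it was used only to rank peaks within a list. The −log10 p and −log10 q values deposited by the authors describe the summit, and q served for 1 alternative. The deposited score was not analysed further, and the deposited summit offset gave the summit position.

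Analysis was limited to the 19 autosomes, X and Y, which left out 1245 to 1814 peaks per library on other contigs. Depth is unknown, as read totals were not analysed here, and no counting interval is given. Gene spans came from a RefSeq table of GRCm38.p6, and starts and sequences from RefSeq. Strand was given for 21 members only, and neither exons nor a genome sequence was used. Windows of 1 kb either side of both gene ends were searched, and a gene was open where every library had a peak touching them. Overlapping or adjoining peaks were merged for distal regions. The percentile takes ties at their mean rank. Gene pairs as close as the type IV collagens had nearest ends within 1275 bp.

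The rule for the members used no measured value, but the set and the other gene lists were chosen with earlier results of these data known. Values in every library are given for the type IV collagens, the highest and lowest member of each family, and the 4 members with most and with fewest distal regions, and others are stated where chosen after their values were seen. Of the further basement membrane genes, the 3 highest, the 3 lowest and any with no peak were to be named, and of distal regions the strongest of each such member. Some items under this rule are not reported here. Alternatives were stricter peaks, equal list lengths, other windows and reach, other rules for sharing, and leaving out each library. The counting was tested on simulated peaks. Python 3.11.15, numpy 2.4.6, pandas 2.3.3 and matplotlib 3.10.9 were used.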

Additional observations from a re-analysis of the deposited data

Results flagged for a closer look

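In 12 values of single members and in 1 median, 1 of the 4 libraries lay apart from the other 3 by a gap that chance gives in about 1 group in 20. Of 63 values checked, which were percentiles, counts of peaks inside the gene and the median, 13 were of this kind. Such a gap was seen in 9 of the 31 gene-end percentiles of members, and in that of 30.4% of all genes open in every library. Replicate 1 was the library apart in all 13. It gave the lowest gene-end percentile at Col4a3 and Col4a4 (62.8, 1 shared peak), Lama5 (90.4), Lamc1 (99.3), Col18a1 (78.2), Fras1 (89.2), Dag1 (98.6), Itga6 (88.6) and Itgb4 (69.1). The median percentile of the 31 members was also lowest there, at 89.2, against 94.1, 94.7 and 93.9 in replicates 2 to 4. Fewest peaks inside the gene were found in replicate 1 at Lama5 (16) and Lamc1 (19), whereas at Col4a6 it held the most (10, against 3 in each other library). At Lamc1 the gap is of a small size, since all 4 percentiles were 99.3 or higher. The peak names that set replicate 1 apart, its fewer peaks and its higher median fold move with these values, and their part in them was not tested.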

How the results depend on the processing

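No paired analysis was possible because the libraries formed 1 group. The number of members open at a gene end ranged from 27 to 31 over all alternatives, was 31 without each library in turn, and was 21 of 21 at listed starts. Col4a5, Col4a6 and Lama2 lost the call only with a fold of 5 or more, Lama5 and Frem2 only when the summit had to lie in the window, and Lamb3 in both and also with q of 1e-05 or less or 0.5 kb windows. The median member's distal density was 2.46 per 100 kb with q of 1e-05 or less (1.32 for all genes), 1.74 with a fold of 5 or more (0.926), 6.11 without replicate 1 (3.11) and 6.63 with at least 3 of 4 libraries (3.69), and 4.35 to 6.11 over the libraries left out. The median percentile was 88.1 with q of 1e-05 or less (90.7 for all open genes) and 82.9 with a fold of 5 or more (87.5), and 92.6 to 94.5 over the libraries left out. It was below that of all open genes in each alternative run. The cause of these shifts was not tested, except that stricter rules keep fewer peaks by construction. Further genes of the basement membrane numbered 48 to 59 of 61, or 38 of 43 at listed starts, and 56 to 58 without 1 library. The number of collagen pairs sharing a peak was 2, or 3 with 2.5 kb windows. For single members, 4 of 296 percentiles and 96 of 310 distal counts moved. Counts moved by over 1.5 times without replicate 1 at Lama2 (2), Lama4 (22), Lama5 (25), Lamb2 (10), Lamc1 (38), Nid1 (39), Hspg2 (24), Agrn (11), Itga3 (26) and Itgb4 (22), without replicate 3 at Lama2 (2), and without replicate 4 at Lama2 (5) and Npnt (14).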
